A study of Mus musculus with 32 samples.

Results

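The rising and falling flanks of the Hes7 wave were compared in mouse presomitic mesoderm (PSM) made in culture, the tissue from which somites are cut off. Of 32 RNA-seq libraries, 10 lie on a flank, 6 where Hes7 mRNA was climbing and 4 where it was declining. They were chosen from the Hes7 counts themselves, so Hes7 is described and not tested. The rising libraries are the dishes frozen at 170, 185 and 310 min (time course Ex4) and at 195, 210 and 345 min (Ex5). The falling libraries are those of 245 and 385 min (Ex4) and 270 and 405 min (Ex5).

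All 32 libraries came from the same Hes7 luciferase reporter line of epiblast stem cells, made on the AES0204 background. All dishes received the same agents: first CHIR99021 (a GSK3 inhibitor that activates Wnt signalling), bFGF, SB431542 (an inhibitor of TGF-β receptors) and LDN193189 (an inhibitor of BMP receptors), then a lower concentration of CHIR99021 with the same 3 other agents. By the labels, the groups differ in the minute of freezing alone, with 1 dish and 1 library per time point, and from what moment the minutes were counted is not given in the sources used here. The libraries on a flank are separate dishes, not repeats of 1 time, and p-values rest on the spread between dishes of this single line. In the libraries outside the flanks, that spread includes changes with the Hes7 wave, except where the cycle was fitted. It is therefore not the spread between repeat dishes alone. Rising libraries held 19.8 to 25.3 M counts (median 24.5) and falling libraries 17.6 to 22.7 M (median 19.3).

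The segmentation clock is a set of genes whose mRNA rises and falls in PSM cells with the period of somite formation. Hes7 is a transcriptional repressor that shuts off its own gene after a delay, and this loop is the core of the clock. Notch signalling, in which a ligand such as Dll1 on 1 cell releases the receptor's intracellular domain to act with the DNA-binding protein RBPJ in its neighbour, keeps cells in step and drives Hes genes. A gene that peaks with Hes7 has similar levels on both flanks, whereas a gene that runs ahead of Hes7 is higher on the rising flank and a gene that lags behind it is higher on the falling flank.

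Hes7 was placed at similar levels on both flanks by the choice of libraries. In CPM (counts per 1 M counts of the library, after scaling), it was 161, 231 and 204 in the rising libraries of Ex4 and 202, 317 and 334 in those of Ex5. In the falling libraries it was 231 and 208 in Ex4, and 227 and 313 in Ex5. The means were 242 ± 69.1 CPM (SD, n = 6) and 244 ± 46.5 CPM (SD, n = 4), and the ranges overlapped. A cosine fitted to Hes7 had a period of 135 min, with Ex4 peaks at 212 and 347 min and Ex5 peaks at 237 and 372 min. Measured from these peaks, rising libraries lay 27.2 to 42.4 min before a peak and falling libraries 32.6 to 37.6 min after one, where the cycle divided by 4 is 33.8 min. Just outside the groups, the Ex4 library of 230 min lay 17.6 min after a peak and that of 327 min 20.4 min before one, whereas the Ex5 library of 285 min lay 47.8 min after a peak. The LUCIFERASE row, the transcript of the reporter, had a flank difference of 0.03 ± 0.20 log2 units (SE) and was not called (adjusted p = 0.999, edgeR).

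**Figure D1:**
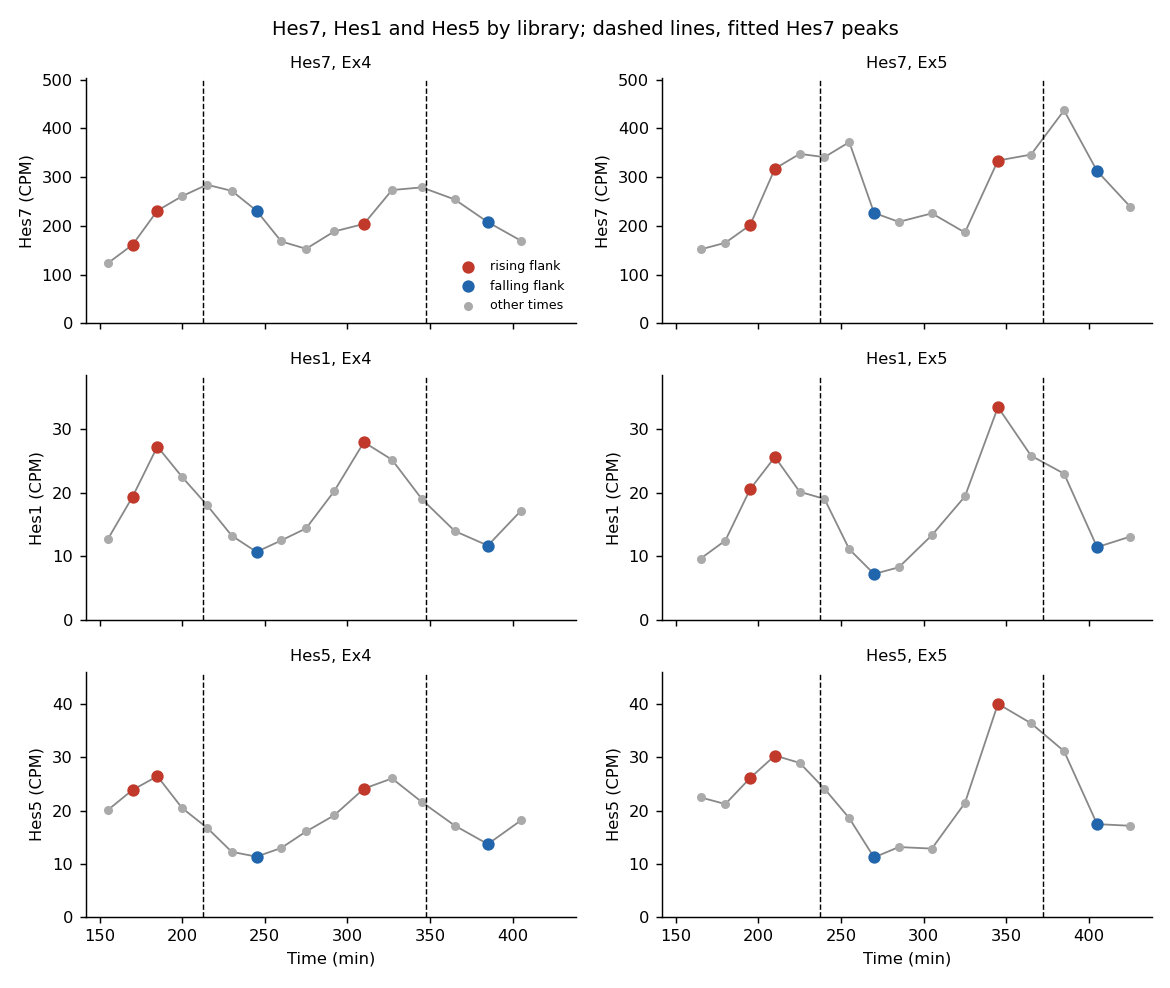
Levels in CPM (vertical axis, linear from 0) of Hes7, Hes1 and Hes5 against time in min, 1 point per library, for Ex4 (left) and Ex5 (right). Red points are the 6 rising libraries, blue points the 4 falling libraries, grey points the 22 others, and dashed lines the fitted Hes7 peaks. Hes1 is at 19.4 to 33.5 CPM in the red libraries and at 7.24 to 11.7 CPM in the blue ones.

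The question was which genes differ between the flanks, once the slow drift of each experiment is taken out, since rising libraries were frozen earlier (mean 236 min) than falling ones (mean 326 min). Each gene was fitted over all 32 libraries with an intercept and a time slope per experiment, and the difference rising minus falling was tested with edgeR's quasi-likelihood test. Of 11767 genes tested, 2 were higher on the rising flank at an adjusted p under 0.05, which is 0.0170% of them, and these were the Hes-family repressors Hes1 and Hes5. On the falling flank 0 genes were higher (0%), also in each of the other tools and settings that were run. Without adjustment, 219 genes (1.86%) had p under 0.05 in favour of the rising flank and 133 (1.13%) in favour of the falling flank. Both sides together, that is fewer than the 1 in 20 that chance alone would give. In 98 genes (0.833%) every rising library lay above every falling library in trend-adjusted level, and in 44 (0.374%) every rising library lay below.

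**Figure D2:**
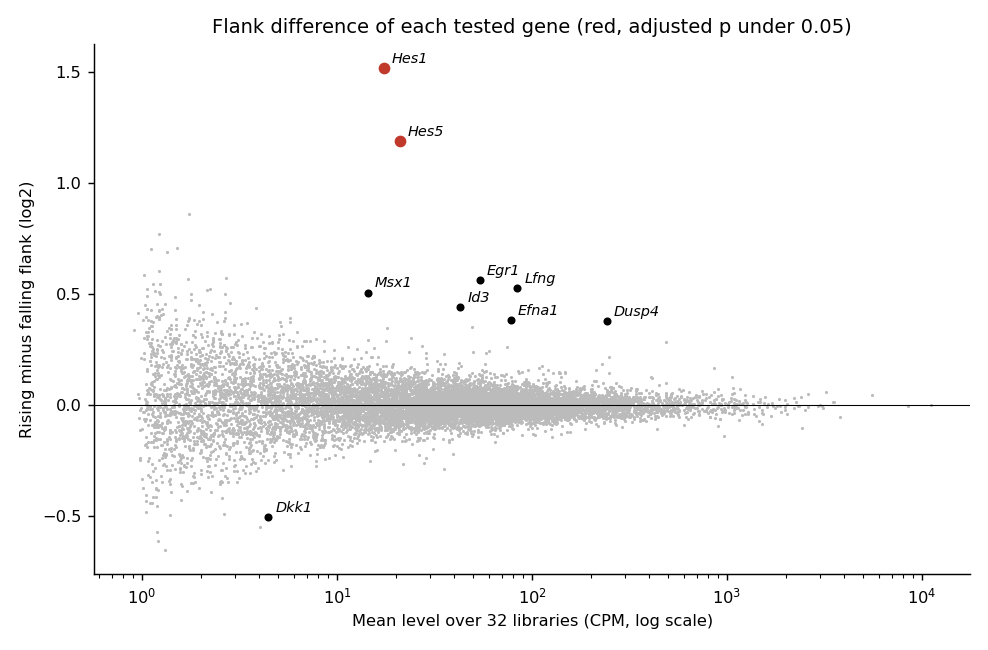
Flank difference of each of the 11767 tested genes (vertical axis, log2, rising minus falling) against its mean level over 32 libraries (horizontal axis, CPM on a log scale). Red points passed at an adjusted p under 0.05, and they are Hes1 at 1.52 and Hes5 at 1.19; black points with a name did not pass.

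Hes1 is a repressor of the same family as Hes7 and a direct target of Notch signalling, with a negative loop of its own. It was 19.4, 27.3 and 27.9 CPM in the rising libraries of Ex4 and 20.6, 25.6 and 33.5 CPM in those of Ex5. Its falling libraries had 10.7 and 11.7 CPM in Ex4, and 7.24 and 11.5 CPM in Ex5. The lowest rising library thus lay above the highest falling library. The fitted difference was 1.52 ± 0.24 log2 units (SE, 95% interval 1.04 to 2.00), a 2.87-fold higher level (adjusted p = 0.00218, edgeR). The contrast was 1.26 ± 0.34 in Ex4 and 1.78 ± 0.34 in Ex5 (SE), and the experiments did not differ beyond error (difference 0.52 ± 0.48 SE, adjusted p = 0.876, edgeR). It was 1.51 in the first cycle of Hes7 and 1.53 in the second. Within single cycles, the mean rising level was 2.18 and 2.39 times the falling level in Ex4 and 3.19 and 2.92 times in Ex5, so the direction was the same in 4 of 4 cycles. Left out 1 at a time, 9 of the 10 flank libraries kept the Hes1 call; without the Ex5 library of 270 min, its lowest level, the difference was 1.42 with an adjusted p of 0.0640 (edgeR). With a separate level for each of the 4 cycles (a block) the difference was 1.32 and the adjusted p 0.0840, and without a time slope it was 1.33 with 0.0998 (edgeR).

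Hes5 is another Notch-driven Hes repressor, best known for keeping neural progenitors undifferentiated. It was 23.9, 26.5 and 24.1 CPM in the rising libraries of Ex4 and 26.1, 30.4 and 40.1 CPM in those of Ex5. Its falling libraries had 11.3 and 13.7 CPM in Ex4, and 11.2 and 17.4 CPM in Ex5. Here too the groups did not overlap. The difference was 1.19 ± 0.22 log2 units (SE, 95% interval 0.74 to 1.64), or 2.28-fold (adjusted p = 0.0337, edgeR). By experiment it was 1.06 ± 0.33 in Ex4 and 1.30 ± 0.32 in Ex5 (SE), and by cycle the rising mean was 2.22, 1.76, 2.53 and 2.30 times the falling mean. The call was close to its threshold: it held with 1 of the 10 flank libraries left out (the Ex5 library of 195 min) and was lost without any of the other 9, where the difference was still 1.07 to 1.25 and the adjusted p reached 0.865 (edgeR). It was also lost in limma-voom (adjusted p = 0.0778), without a time slope (1.09, 0.153, edgeR) and with a level for each cycle as a block (1.01, 0.632, edgeR).

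Hes1 and Hes5 were picked together with the flanks, when earlier results of these data were known, so their calls are no independent evidence. The 22 libraries outside the flanks are other dishes of the same courses. Earlier results of these data were known for them too, and the Hes7 phase was fitted on all 32 libraries. Hence the 22 libraries give no independent evidence either. In them a cosine and a sine of the Hes7 phase were fitted, where a positive sine means a higher level before the Hes7 peak than after it. Of 11767 genes, 1 (0.00850%) had a sine term past the test, and it was Hes1, at 0.53 ± 0.07 log2 units (SE, adjusted p = 0.000284, edgeR). Hes5 had 0.42 ± 0.09 (SE), with an unadjusted p of 1.0e-04 and an adjusted p of 0.298 (edgeR). In these 22 libraries the fitted peak fell 24.1 min before that of Hes7 for Hes1 and 24.0 min before it for Hes5. For a gene with a cosine course, the flank difference should be near double its sine term; doubled, the terms are 1.05 for Hes1 and 0.84 for Hes5, beside flank differences of 1.52 and 1.19. The Hes1 call in these libraries depends on the period: at 120 min in place of 135 min 0 genes passed (Hes1 0.38, adjusted p = 0.445, edgeR). At 150 min 1 gene passed, but it was Hes5 (0.44, adjusted p = 0.0130, edgeR), and Hes1 did not (0.40, adjusted p = 0.164, edgeR). With a quadratic time course 7 genes passed, Hes1 and Hes5 among them. Over the 6 alternative settings the Hes5 term ranged from 0.15 to 0.44 and the Hes1 term from 0.38 to 0.53.

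**Figure D3:**
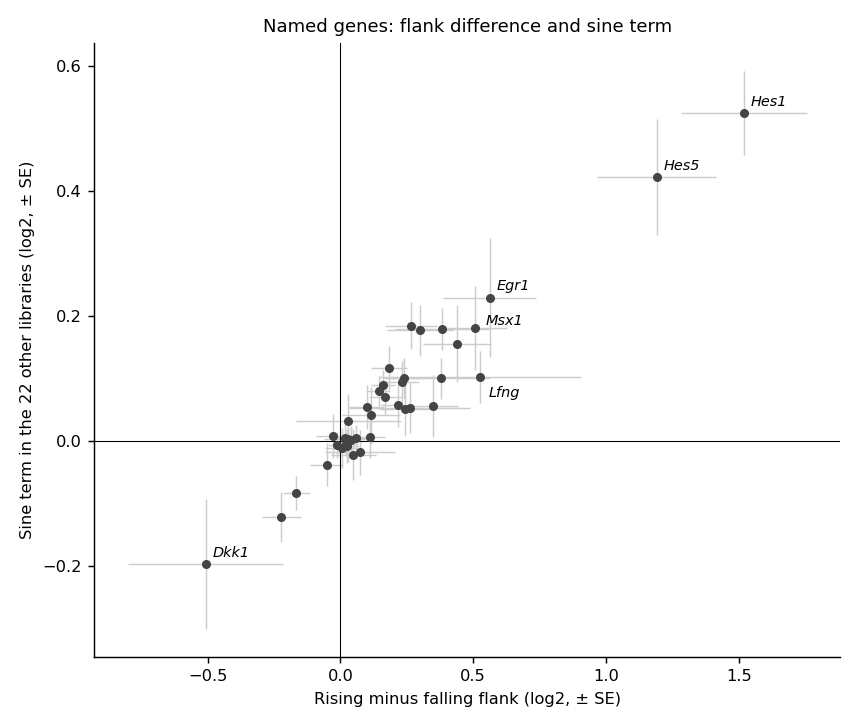
Flank difference (horizontal axis, log2, bars ± SE) against the sine term in the 22 other libraries (vertical axis, log2, bars ± SE) of the genes named in the text except Hes7 and Arnt2, 1 point per gene. Hes1 (1.52, 0.53) and Hes5 (1.19, 0.42) stand at the upper right and Dkk1 (-0.51, -0.20) at the lower left. Several of these genes were named for their flank difference. The 22 other libraries also enter the time slopes of both fits, so the slant of the cloud is not a result.

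Because Notch acts through RBPJ, the sequence before the start of 3 of its targets is given, with every match of the RBPJ motif GTGGGAA or its reverse complement in capitals. Hes5 moved between the flanks, Hes7 marks them, and Lfng is a Notch target with a fitted peak at -2.75 min from that of Hes7 in the 22 other libraries (negative is earlier). The windows run from 250 to 51 bases before the RefSeq start (GRCm38.p6, plus strand, 5′ to 3′) and are Hes5 at chr4:154960673-154960872, Hes7 at chr11:69120203-69120402 and Lfng at chr5:140607091-140607290. Of 4 genes looked up, 3 were matched in the table of RefSeq sequences used here, and Hes1 is named only.
Hes5: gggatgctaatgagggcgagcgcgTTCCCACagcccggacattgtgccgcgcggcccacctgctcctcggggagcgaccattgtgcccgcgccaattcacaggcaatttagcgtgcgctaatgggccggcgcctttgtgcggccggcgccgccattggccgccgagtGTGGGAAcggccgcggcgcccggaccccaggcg
Hes7: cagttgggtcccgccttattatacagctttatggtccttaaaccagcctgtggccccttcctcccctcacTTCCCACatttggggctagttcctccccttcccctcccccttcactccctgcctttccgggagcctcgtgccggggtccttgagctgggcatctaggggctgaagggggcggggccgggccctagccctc
Lfng: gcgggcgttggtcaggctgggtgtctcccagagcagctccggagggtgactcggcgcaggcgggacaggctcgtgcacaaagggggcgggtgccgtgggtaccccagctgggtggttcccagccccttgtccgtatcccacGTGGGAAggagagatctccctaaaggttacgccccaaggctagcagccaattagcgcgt
The Hes5 window holds 2 matches, starting 226 and 83 bases before the start, in opposite orientations. Hes7 has 1 match at 180 bases and Lfng 1 at 109 bases. Of 32817 RefSeq promoter windows of this length, 1427 (4.35%) hold a match on either strand. The N box CACNAG, a motif bound by Hes repressors, occurs in 31.1% of windows, in those of Hes7 and Lfng 1 time each and in that of Hes5 0 times. A match is a run of letters and not a measured site. In GENCODE M21 (GRCm38), Hes1 lies on chromosome 16 (30064384 to 30067796), Hes5 on chromosome 4 (154960923 to 154962371) and Hes7 on chromosome 11 (69120404 to 69124055), all on the plus strand.

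Among Notch targets and Hes/Hey repressors, 2 of 12 genes tested passed, Hes1 and Hes5. A positive difference was found in 10 of 12, with a median of 0.15, beside 50.9% and 0.00 over all genes tested. Without Hes1 and Hes5, which were picked with the flanks, 8 of 10 were positive, with a median of 0.09. Of these 10, 3 had an unadjusted p under 0.05 on the rising side, against 1.86% of all genes: Id1, Id2 and Efna1. Id1 and Id2 are also on the list of BMP and TGF-β targets, and Efna1 is also on that of ephrins. Counts from these lists are therefore not separate. Efna1, an ephrin ligand, ranged from 73.4 to 101 CPM (median 88.5) on the rising flank and was 73.3, 64.2, 60.3 and 66.0 CPM in the falling libraries. Its 6 rising values were all above its 4 falling ones in CPM, though not after the trend was taken out. Its difference was 0.38 ± 0.18 (SE, adjusted p = 0.999, edgeR). Hey1 (0.11 ± 0.11), Hes6 (0.05 ± 0.08) and Nrarp (0.07 ± 0.13; SE), a feedback inhibitor of Notch, did not pass. The 95% interval of Nrarp was -0.19 to 0.34, which lies below those of Hes1 and Hes5.

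In the Notch receptors, ligands and processing genes, 0 of 16 passed and the median difference was -0.01. Lfng, which adds sugars to the Notch receptor, had 47.9 to 139 CPM on the rising flank (median 78.8) and 62.6, 62.3, 54.9 and 111 CPM on the falling flank, with wide overlap. Its difference was 0.53 ± 0.38 (SE, 95% interval -0.25 to 1.30, adjusted p = 0.999, edgeR), an interval that holds both 0 and the difference of Hes5. In the 22 other libraries its cosine term was 0.80 ± 0.03 and its sine term 0.10 ± 0.04 (SE), with a fitted peak at -2.75 min from that of Hes7. The ligand Dll1 had a difference of 0.17 ± 0.06 and Maml3, a coactivator of the Notch complex, 0.18 ± 0.07 (SE). Neither passed (adjusted p = 0.999, edgeR). After trend adjustment both were higher in all rising than in all falling libraries, as were 0.833% of all genes, but by narrow gaps. The lowest rising and highest falling values were -0.046 and -0.049 for Dll1, and 0.0087 and 0.0019 for Maml3. Notch1 (0.03 ± 0.09, SE), the receptor, and Dll3 (0.00 ± 0.06, SE), a ligand that inhibits signalling within the cell, had intervals of -0.15 to 0.21 and -0.12 to 0.13. Rbpj itself was at -0.03 ± 0.06 (SE).

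**Figure D4:**
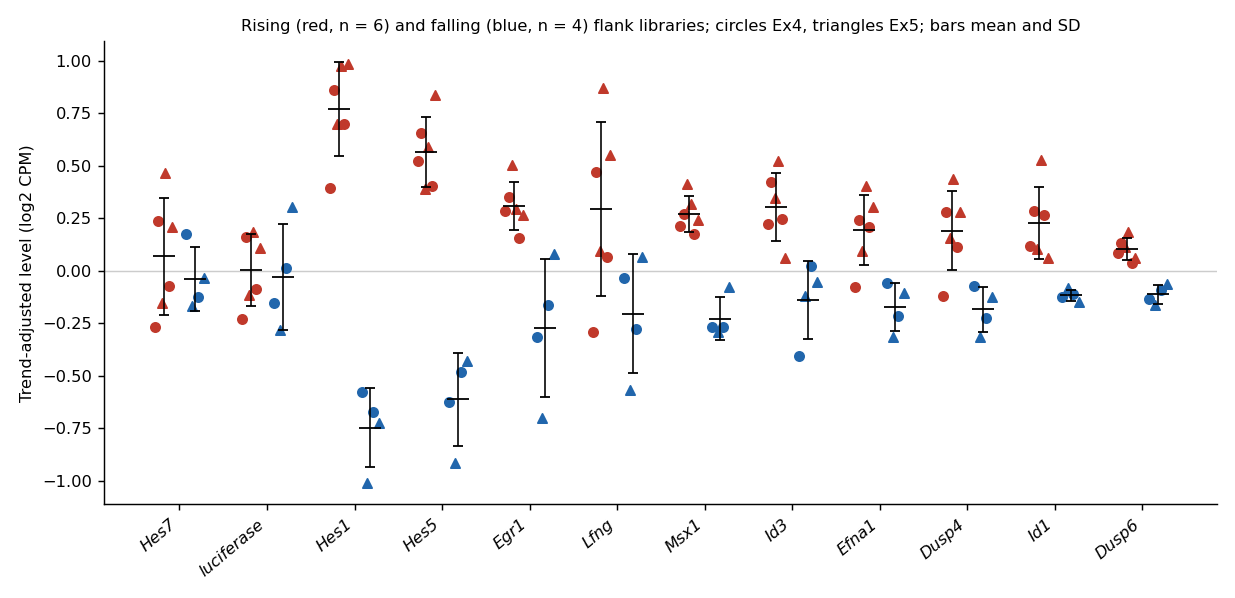
Trend-adjusted level (vertical axis, log2 CPM, 0 is the fitted trend of the experiment) in each rising (red, n = 6) and falling (blue, n = 4) library of 12 genes; circles are Ex4, triangles Ex5, and bars give the mean and SD. Hes1 and Hes5 have the widest gap between red and blue, Msx1, Id1 and Dusp6 a narrow one, and in Hes7 and the luciferase transcript the colours overlap.

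FGF signalling through the ERK kinase keeps PSM cells immature, and its inhibitors, the Dusp phosphatases and Sprouty proteins, are induced by ERK itself. Of 22 ERK targets and feedback genes tested 0 passed, while 19 had a positive difference (median 0.13), 7 had an unadjusted p under 0.05 on the rising side against 0 on the falling side, and 5 had all rising libraries above all falling ones. Over all genes 50.9% were positive (median 0.00), and the latter shares were 1.86% on the rising side, 1.13% on the falling side and 0.833%. Genes of a list are not independent of each other, and nothing particular to the list was tested. Egr1, an immediate early transcription factor, ranged from 45.2 to 94.2 CPM on the rising flank (median 61.4) and was 31.8, 37.5, 39.2 and 62.6 CPM on the falling flank. Its CPM overlapped between flanks, and within each experiment every rising library was above every falling one. The difference was 0.56 ± 0.17 (SE, adjusted p = 0.999, edgeR).

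Dusp6, the ERK phosphatase, ranged from 243 to 287 CPM (median 259) on the rising flank and was 217, 241, 227 and 245 CPM on the falling flank. Its difference was 0.21 ± 0.06 (SE). Spry2, a Sprouty inhibitor, was at 0.14 ± 0.04, and Snai1, a repressor of epithelial genes, at 0.24 ± 0.10 (SE). Dusp4 had 237 to 335 CPM (median 270) on the rising flank and 235, 196, 182 and 172 CPM on the falling flank, a difference of 0.38 ± 0.19 (SE). None of these 4 passed (adjusted p = 0.999, edgeR). In the same list Etv4 (0.04 ± 0.04), Etv5 (0.02 ± 0.03) and Il17rd (0.02 ± 0.04; SE) had small differences, with an upper 95% bound of 0.12 for Etv4. The 8 FGF ligands and receptors tested had 0 genes with an unadjusted p under 0.05, and Fgf8, Fgf17 and Fgfr1 were at 0.11 ± 0.06, -0.05 ± 0.06 and 0.06 ± 0.04 (SE).

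The cycle of the 22 other libraries counts as error in this model, which bears most on strongly cycling genes. With a cosine and sine for those libraries, 4 genes were higher on the rising flank, Hes1, Hes5, Efna1 (0.38, adjusted p = 0.0257, edgeR) and Dusp4 (0.37, adjusted p = 0.0275, edgeR). Lfng then had 0.50 ± 0.14 (SE) and did not pass (adjusted p = 0.561, edgeR).

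In the BMP and TGF-β targets, 0 of 11 passed. A positive difference was found in 6 of 11 (54.5%), with a median of 0.04, beside 50.9% and 0.00 over all genes. On the rising side 4 had an unadjusted p under 0.05, as did 1.86% of all genes. Those 4 were Msx1 and the Id genes Id1, Id2 and Id3, which encode inhibitors of bHLH factors. Of these, Id1 and Id2 were already counted among the Notch targets above. Msx1, a homeobox factor induced by BMP, was 23.0, 24.0 and 23.8 CPM in rising and 17 and 18.1 CPM in falling libraries of Ex4, and 10.8, 9.87 and 7.80 CPM against 5.94 and 5.76 CPM in Ex5. In both experiments every rising library was above every falling one. Its difference, 0.51 ± 0.12 (SE, 95% interval 0.26 to 0.75), had the smallest p among the list members that did not pass (adjusted p = 0.760, edgeR). Id1 was at 0.35 ± 0.09, Id3 at 0.44 ± 0.13 and Id2 at 0.30 ± 0.13 (SE), each with an adjusted p of 0.999 (edgeR). The BMP receptor inhibitor was present in every dish.

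Wnt signalling, raised here by CHIR99021, is known to cycle out of step with Notch in the mouse PSM. Of 20 Wnt targets and antagonists tested 0 passed, with a median of 0.04. Dkk1, a secreted Wnt antagonist, was the lowest of the list at -0.51 ± 0.29 (SE, 95% interval -1.10 to 0.09, adjusted p = 0.999, edgeR), from 1.64 to 7.12 CPM on the rising flank and 1.69 to 6.03 CPM on the falling flank, with full overlap. Axin2, a feedback inhibitor within the pathway, was at 0.10 ± 0.07, Lef1, its transcription factor, at -0.01 ± 0.04, and Ccnd1, a cyclin, at 0.03 ± 0.04 (SE). Apcdd1 (0.23 ± 0.07), a membrane inhibitor of Wnt signalling, and the receptor gene Tnfrsf19 (0.16 ± 0.05; SE) had unadjusted p-values of 0.00109 and 0.00121 and an adjusted p of 0.999 (edgeR).

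**Figure D5:**
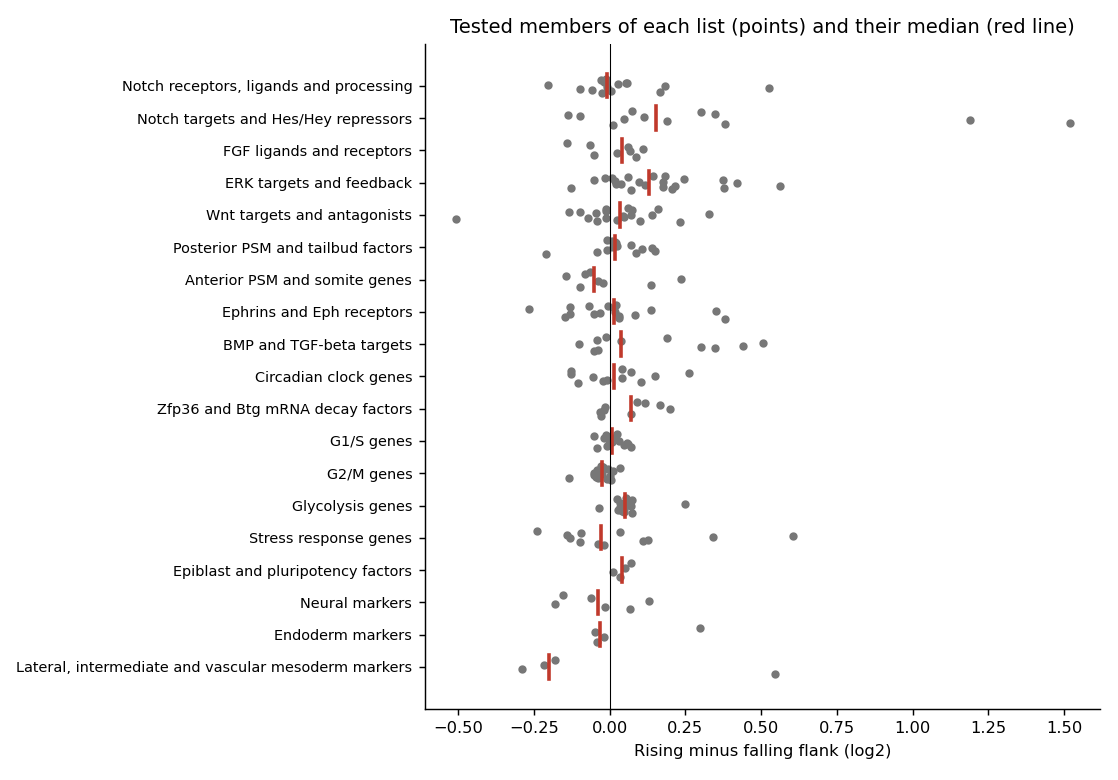
Flank difference (horizontal axis, log2, rising minus falling) of the tested members of 19 gene lists, 1 point per gene, with the list's median as a red line. Hes1 and Hes5 are the only points above 1, and medians lie between -0.20 (lateral mesoderm markers, 4 genes) and 0.15 (Notch targets).

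The other lists held 0 passing genes. Circadian clock genes (12 tested) had a median of 0.02, and Per1, which cycles with Hes7, was at 0.26 ± 0.23 (SE, 95% interval -0.20 to 0.72). Of the 16 glycolysis genes 15 had a positive difference, beside 50.9% of all genes, with a median of 0.05. The G1/S and G2/M lists, of 16 genes each, had medians of 0.01 and -0.03 and 0 genes with an unadjusted p under 0.05.

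Among all genes with a mean of at least 5 CPM, those whose levels most resembled Hes1 over the 32 libraries, after the trend of each experiment was taken out, were Hes5 (r = 0.892), Klf10 (0.805), Pim1 (0.788), Id2 (0.786) and Spry2 (0.746). These correlations are descriptions over dishes of the same courses, which share the Hes7 cycle. Klf10, a TGF-β-induced repressor, had a flank difference of 0.24 ± 0.08 and Pim1, a kinase, 0.27 ± 0.10 (SE), both with an adjusted p of 0.999 (edgeR). Doubled, their sine terms in the 22 other libraries were 0.20 and 0.37.

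On the falling side, Frmd4b and Tns2, singled out after their values were seen, had all 4 falling libraries above all 6 rising ones after trend adjustment. So did 44 of all genes (0.374%). In CPM the flanks overlapped for both: 31.5 to 38.1 rising and 37.9 to 44.8 falling for Frmd4b. For Tns2 they were 29.7 to 48.6 and 33.0 to 48.7, and its difference ranged from -0.278 to -0.056 over 13 alternative settings. Frmd4b was at -0.17 ± 0.05 and Tns2, a tensin of cell adhesion sites, at -0.22 ± 0.07 (SE), and both had an adjusted p of 0.999 (edgeR).

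The flank contrast did not differ between Ex4 and Ex5 in any gene past the test (0 of 11767, 0%), nor did any gene pass in DESeq2. Without adjustment 800 genes (6.8%) had p under 0.05 for the difference between experiments. Between the first and the second cycle 1 gene differed (0.00850%), Arnt2, a bHLH-PAS transcription factor, with 0.25 in the first cycle and -0.24 in the second; its flank difference over both was 0.04 ± 0.06 (SE). For the difference between cycles, 1136 genes (9.65%) had an unadjusted p under 0.05. With quadratic time 0 genes passed the adjusted test between cycles.

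The labelled cell type was checked with marker genes. The summed CPM of 5 PSM markers (Tbx6, Msgn1, Dll1, T and Rspo3) was 1973 to 2650 on the rising flank and 2013 to 2461 on the falling flank. With Hes7, which chose the libraries, as a sixth marker it was 2134 to 2967 and 2244 to 2687. The 4 epiblast markers (Pou5f1, Nanog, Utf1 and Fgf5) summed to 31.6 to 86.6 and 27.3 to 59.2 CPM. Nearly all of that was Pou5f1 (mean 50.8 CPM over the 10 flank libraries), and the other 3 were under 1 CPM. Of other genes on the epiblast list, Dnmt3b (183), Cdh1 (60.7) and Sox2 (20.5 CPM, means over 32 libraries) were also expressed. The 4 neural markers summed to 16.1 to 20.7 and 15.7 to 26.3 CPM, with 1 under 1 CPM. The chosen endoderm markers were Sox17, Foxa2 and Gata6, and those of lateral mesoderm Kdr, Tal1, Hand1, Foxf1 and Cdh5. Somite markers were Mesp2, Ripply2, Meox1 and Tcf15. Each of these sets summed to under 4 CPM in each flank library. The ranges of all sets but endoderm (1.64 to 1.98 rising, 0.81 to 1.48 falling) overlapped between flanks. Some other genes on the lists of these types had higher means over the 32 libraries. Among them were Epha4 (114 CPM) and Aldh1a2 (64.7) for anterior PSM and somites, Cxcr4 (38.1) and Epcam (35.6) for endoderm, and Lhx1 (6.27). The sums thus cover the named markers alone. Whether cells of any of these types had a part in any flank difference was not tested. In bulk RNA, fewer cells of a type and less RNA per cell cannot be told apart.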

How the data were processed

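Polyadenylated RNA of 32 dishes was sequenced, 16 in each of 2 time courses. The deposited table holds raw counts per gene symbol; per the submitters' processing notes, bcl2fastq 2.17.1.14, cutadapt 1.14, HISAT2 2.1.0, HTSeq 0.6.1 and the build mm10 were used. The kit marks strand per the labels' protocols, but which annotation was counted, and whether by strand, is not given in the sources used here; overlapping genes can share reads. The number of columns left unused was 0, and 0 pairs of libraries were identical.

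Of 21886 genes, the 11768 that reached 1 CPM in 16 or more libraries were fitted with edgeR 4.0.16 (R 4.3.3, TMM, quasi-likelihood test). The model had an intercept and a slope per experiment (time centred at 285 min) and 1 term per flank. All 32 libraries, flank and other, enter the slopes and the spread. Hes7 chose the libraries and was not tested, which leaves 11767. P-values were adjusted by Benjamini-Hochberg at 0.05. Trend-adjusted levels are log2 CPM (prior count 0.5) minus the fitted trend, and intervals are 95%. The Hes7 period was searched from 90 to 240 min. The Hes7 phase came from all 32 libraries. The script was tested on simulated data. Alternatives were DESeq2 1.42.0, limma-voom (limma 3.58.1), other filters, scaling and time courses, each experiment alone and each flank library left out.

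The libraries, members and lists were chosen with earlier results of these data known. Named genes are Hes7, the luciferase row, Hes1, Hes5 and up to 12 genes past the test per direction (mean of at least 5 CPM, same sign in Ex4 and Ex5). Up to 4 genes past the test per list were named too. Each Notch, FGF, ERK and Wnt list gave up to 3 members with the highest levels that did not pass. Up to 5 genes differing between experiments or cycles and the 5 most like Hes1 were added. A further 22 genes, 4 of them among those most like Hes1, were singled out after their values were seen.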

Additional observations from a re-analysis of the deposited data

Results flagged for a closer look

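Of 84 groups of 4 or 6 flank libraries examined for single libraries apart from the rest, 3 were flagged, and chance alone flags about 1 in 20. Ccnd1 in the falling Ex4 library of 245 min had a trend-adjusted level of 0.0205 log2 units, above the other falling libraries at -0.055 to -0.046. Msx1 in the falling Ex5 library of 405 min was at -0.077, where the other 3 lay from -0.29 to -0.27. Frmd4b in the falling Ex4 library of 245 min was at 0.073, below the others at 0.13 to 0.14. Arnt2 was flagged for a flank difference that differed between cycles, by -0.49 log2 units from the first to the second (adjusted p = 0.0335, edgeR).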

How the results depend on the processing

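The count of 2 genes higher on the rising flank became 1 in limma-voom (Hes1) and 1 without the earliest rising library of each experiment (Hes1), 4 with a cosine and sine for the other libraries, and 0 without a time slope, with cycle as a replicate block, in Ex4 alone and in Ex5 alone; with 1 flank library left out it was 0 to 2, and 0 only without the Ex5 library of 270 min. The genes higher on the falling flank stayed at 0 in all 13 alternatives and all 10 leave-outs. Hes1 lost its call without a time slope (1.33), with the replicate block (1.32), in Ex4 alone (1.25) and in Ex5 alone (1.78), and ranged from 1.42 to 1.59 with 1 library left out. Hes5 lost its call in limma-voom (1.19), without a time slope (1.09), without the earliest rising libraries (1.24), with the replicate block (1.01), in Ex4 alone (1.05) and in Ex5 alone (1.31), and ranged from 1.07 to 1.25 with 1 library left out. A single experiment has 3 rising and 2 falling libraries, and fewer samples enter each such fit. Why calls were lost in any of these settings was not tested. The direction of both genes was kept in all 13 alternatives.

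The difference between experiments had 0 genes in all 4 alternatives. Between cycles 7 genes passed in DESeq2 and 0 with quadratic time; there the cycle difference of Hes1, not called, turned to -0.27, and that of Arnt2 was -0.41 (adjusted p = 0.223, edgeR). The sine term in the 22 other libraries had 6 genes with no filter, 3 in DESeq2, 7 with quadratic time and 0 with a period of 120 min. At 150 min it had 1, as at 135 min, but a different gene: Hes1 was lost (0.40, adjusted p = 0.164, edgeR) and Hes5 gained (0.44, adjusted p = 0.0130, edgeR).

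Of the 39 other named genes 25 kept their direction throughout and 14, none of them called, turned at least once. Without a time slope these were luciferase (-0.090), Dll3 (-0.14), Notch1 (-0.21), Nrarp (-0.23), Il17rd (-0.069), Id2 (-0.0078), Dkk1 (0.10), Rbpj (0.0079), Hey1 (-0.16) and Etv5 (-0.019). In Ex4 alone they were Notch1 (-0.12), Nrarp (-0.094), Il17rd (-0.059), Ccnd1 (-0.023), Rbpj (0.0071) and Hey1 (-0.13), and in Ex5 alone Dll3 (-0.0012), Fgf3 (-0.042), Lef1 (0.018) and Etv5 (-0.00050). Lef1 was at 0.013 and Rbpj at 0.0063 in the 10 flank libraries alone, Lef1 at 0.023 without the earliest rising libraries, and Arnt2 at -0.0047 with the replicate block. With 1 library left out the ranges were -0.087 to 0.16 for luciferase, -0.027 to 0.035 for Dll3, -0.054 to 0.074 for Notch1, -0.00025 to 0.062 for Fgf3, -0.015 to 0.039 for Il17rd, -0.032 to 0.0048 for Lef1, -0.058 to 0.11 for Arnt2 and -0.057 to 0.017 for Rbpj. With 6 against 4 libraries and 17.6 to 25.3 M counts each, the spread between dishes, which includes the cycle of the other libraries, limits small differences.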
